A study of Homo sapiens with 30 samples.

Results

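At the lowest dose in the series, 20 µg/mL, SW1783 cells given an extract of the traditional formula Banhasasim-tang were set against the same cells given Bojungikgi-tang or Sayeok-tang. The 8 libraries, out of 30 in the series, are those whose labels give these formulas at this dose: 2 of Banhasasim-tang (replicates 2 and 3), 3 of Bojungikgi-tang and 3 of Sayeok-tang. SW1783 is an established human astrocytoma line. Each formula was a 70% ethanol extract, RNA was taken after 24 h, and the readout was bulk RNA sequencing, with expected counts (estimated reads) for each gene. Values from outside the 8 libraries are given beside the results where they help: the same formulas at 100 and 500 µg/mL, Yijung-tang with 1 library at each dose, and 3 vehicle libraries whose labels give 0.1% DMSO.

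Banhasasim-tang is a mixture built on Pinellia tuber, with Scutellaria, Coptis, dried ginger, ginseng, licorice and jujube. Bojungikgi-tang is built on Astragalus and ginseng, Sayeok-tang on aconite, dried ginger and licorice, and Yijung-tang on ginseng, dried ginger, Atractylodes and licorice. Pathways that recur below need a short background. Cells short of amino acids, or with stressed mitochondria or a stressed endoplasmic reticulum, phosphorylate the initiation factor eIF2, which lowers general translation while raising translation of the transcription factor ATF4. ATF4 then switches on genes for amino acid synthesis, uptake and tRNA charging, together with feedback genes such as TRIB3 and DDIT3. Mitochondria carry their own small genome, whose 2 ribosomal RNAs are copied first from a long transcript that goes on to messenger RNAs of the respiratory chain.

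Depth was 44155115 and 58604439 counts in the Banhasasim-tang libraries and 40035210 to 55436052 counts in the other 6. The Banhasasim-tang and Yijung-tang library names begin with 14, the Bojungikgi-tang and Sayeok-tang names with 15 and the vehicle names with E1. The sources used here do not say what these marks stand for, so the formula and the set of libraries cannot be told apart in the comparison. Counts at the 18S ribosomal RNA loci, a measure of leftover ribosomal RNA, were 500.0 to 805 CPM (counts scaled to the size of each library) in the Banhasasim-tang libraries and 594 to 1968 CPM in the other 6. Across 13935 genes the median absolute log2 difference was 0.06 between the 2 Banhasasim-tang libraries. It was 0.06 to 0.14 between a Banhasasim-tang and a Bojungikgi-tang or Sayeok-tang library, beside 0.06 to 0.15 within either of the other formulas. The upper ends came from Bojungikgi-tang replicate 2, whose pairs gave 0.105 to 0.151, where no other pair exceeded 0.095. Whole profiles were about as close across formulas as within them. Summed astrocyte markers stood at 5216 to 5507 CPM with Banhasasim-tang and 4259 to 5365 CPM in the other 6, but VIM, an intermediate filament gene of many cell types, supplied most of this, averaging 4829 CPM with Banhasasim-tang and 4410 CPM in the other 6. Of the 14 markers 6 were below 1 CPM, the defining GFAP, S100B, AQP4 and ALDH1L1 among them, and FABP7 was at 0 in all 8 libraries. Replicates are separate samples by their labels, but nothing says that they came from separate cultures, so the p-values rest on a spread between libraries that could be technical in part.

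Few genes separated Banhasasim-tang from the other formulas at this dose. Of 19632 genes tested, 33 were higher and 8 lower with Banhasasim-tang at an adjusted p under 0.05 (edgeR quasi-likelihood test, Benjamini-Hochberg adjustment), which is 0.209% of all genes tested (0.168% higher and 0.0407% lower). Most of the differences were small: 33 of the 41 genes had an absolute log2 fold change under 0.5, where the log2 fold change is Banhasasim-tang over the mean of the other formulas. The exceptions were the 2 mitochondrial ribosomal RNAs, ADM2, CHAC1, STK32A, the pseudogene MTND2P28 and the low-count RNVU1-7 on the higher side, and TXNIP on the lower side. The median log2 fold change over all genes was 1e-04. In 39 of the 41 genes both Banhasasim-tang libraries lay outside the range of the other 6, as they did in 9.14% of all genes tested. Scaling by library size alone gave 24 higher and 31 lower genes, and DESeq2 gave 57 and 22. The number of calls rests on each Banhasasim-tang library: it was 8 without replicate 2 and 18 without replicate 3. It also rests on the spread being estimated over all 30 libraries, since the 8 libraries fitted alone gave 5 calls, namely MT-RNR1, MT-RNR2, ADM2, CHAC1 and TXNIP.

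**Figure D1:**
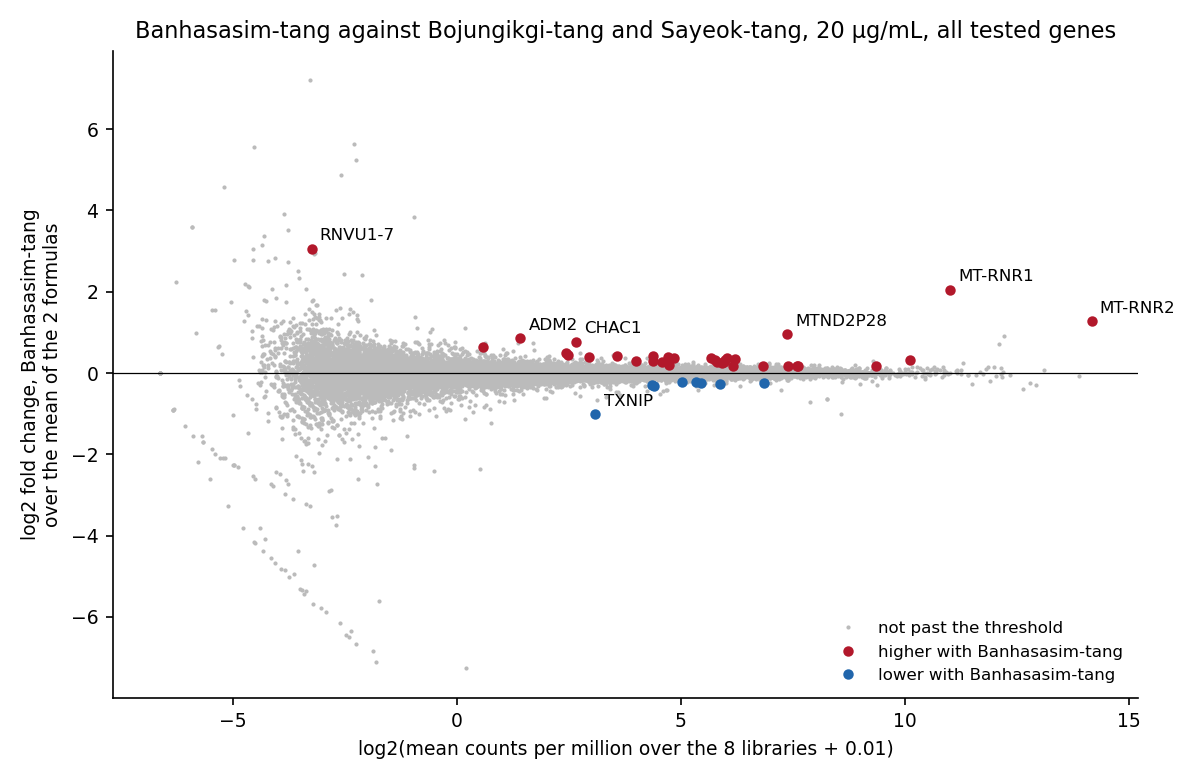
Log2 fold change, Banhasasim-tang over the mean of Bojungikgi-tang and Sayeok-tang at 20 µg/mL (vertical axis), against the mean level over the 8 libraries on a log2 scale (horizontal axis), 1 point per tested gene. The 33 higher genes (red) and 8 lower genes (blue) lie mostly close to 0, with MT-RNR1 at 2.05, MT-RNR2 at 1.28 and TXNIP at -1.01 apart from the rest.

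The difference was to both formulas. Against Bojungikgi-tang alone 27 genes were higher and 3 lower with Banhasasim-tang (0.153% of genes tested), and against Sayeok-tang alone 21 were higher and 5 lower (0.132%). Of the 41 genes, 28 also passed against Bojungikgi-tang, 25 against Sayeok-tang and 19 against each of them, and all 41 had the same direction against each. These comparisons use the same Banhasasim-tang libraries, and the formulas' libraries are part of the pooled comparison, so they are not separate evidence. Bojungikgi-tang against Sayeok-tang at the same dose gave 0 calls with edgeR and 0 with DESeq2, and 720 and 404 genes at an unadjusted p under 0.05, or 3.67% of genes with edgeR, where Banhasasim-tang against the pooled 6 gave 1359 with edgeR (6.92%). The library names of both these formulas begin with 15 and those of Banhasasim-tang with 14. The first of these comparisons therefore stays within a set of libraries and the second does not. GDF15 had a log2 fold change of 0.66 against Bojungikgi-tang (adjusted p = 3.76e-04) and 0.31 against Sayeok-tang (adjusted p = 0.318), and Bojungikgi-tang against Sayeok-tang gave -0.35 for it, at an unadjusted p of 3.97e-04 (adjusted p = 1.00).

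The 2 ribosomal RNAs of the mitochondrial genome showed the largest differences among the called genes above 1 CPM. These are mRNA libraries, and how much of the cells' ribosomal RNA entered each library was not measured, so the levels are those in the libraries. MT-RNR1, the small-subunit ribosomal RNA (ENSG00000211459, chrM:648-1601, plus strand, GRCh38), stood at 5389 and 4247 CPM with Banhasasim-tang, against 1168, 1295 and 1082 CPM with Bojungikgi-tang and 1001, 1281 and 1135 CPM with Sayeok-tang. The lower Banhasasim-tang library was 3.28 times the highest of the other 6. The log2 fold change was 2.05 (SE 0.15, adjusted p = 5.88e-07). MT-RNR2, the large-subunit ribosomal RNA (ENSG00000210082, chrM:1671-3229, plus strand), stood at 35360 and 30670 CPM with Banhasasim-tang, against 15250, 14100 and 12800 CPM with Bojungikgi-tang and 13120, 13270 and 13240 CPM with Sayeok-tang. Again the groups did not overlap, a condition for naming a called gene by its log2 fold change. The log2 fold change was 1.28 (SE 0.05, adjusted p = 3.19e-15). The Yijung-tang library lay among the other formulas at 1233 CPM for MT-RNR1 and 13100 CPM for MT-RNR2. Vehicle libraries were lower than all of them, with means of 700.8 CPM (SD 14.8, n = 3) for MT-RNR1 and 8903 CPM (SD 325, n = 3) for MT-RNR2. Both genes stayed past the threshold in every one of the 18 other settings that gave them a value, with log2 fold changes of 1.87 to 2.22 and of 1.17 to 1.38.

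Along the mitochondrial genome the 2 ribosomal RNAs, at its start, were the only genes to pass. Together the ribosomal RNAs took 3.44 to 3.93% of all counts with Banhasasim-tang and 1.41 to 1.62% in the other 6 libraries, whereas the other mitochondrial genes took 5.44 to 6.12% and 5.38 to 7.17%. MT-ND1 and MT-ND2, which encode complex I subunits and come next on the genome, had log2 fold changes of 0.90 (adjusted p = 0.0672) and 0.72 (adjusted p = 0.243) and did not pass. MT-ND1 stood at 7605 and 6950 CPM with Banhasasim-tang, against 5619, 3766 and 3071 CPM with Bojungikgi-tang and 3435, 3298 and 4254 CPM with Sayeok-tang. Here too the groups did not overlap, and Bojungikgi-tang replicate 1 was the highest of the other 6. None of the 13 mitochondrial messenger RNAs passed in either direction, and 10 of them had a negative log2 fold change, the most negative being MT-ATP8 at -0.72 (adjusted p = 0.286) and MT-CO3, a subunit of cytochrome c oxidase, at -0.38 (adjusted p = 0.138). The median over the 13 was -0.22, beside 1e-04 over all genes. MTND2P28, a copy of MT-ND2 on chromosome 1 (chr1:629640-630683), was called higher at a log2 fold change of 0.96 (adjusted p = 0.00656), with 319 and 204 CPM against 160.2, 101, 138, 128, 134 and 149 CPM. Reads cannot be split with certainty between this copy and MT-ND2 itself, and the call was lost without Banhasasim-tang replicate 2 (log2 fold change 0.60).

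**Figure D2:**
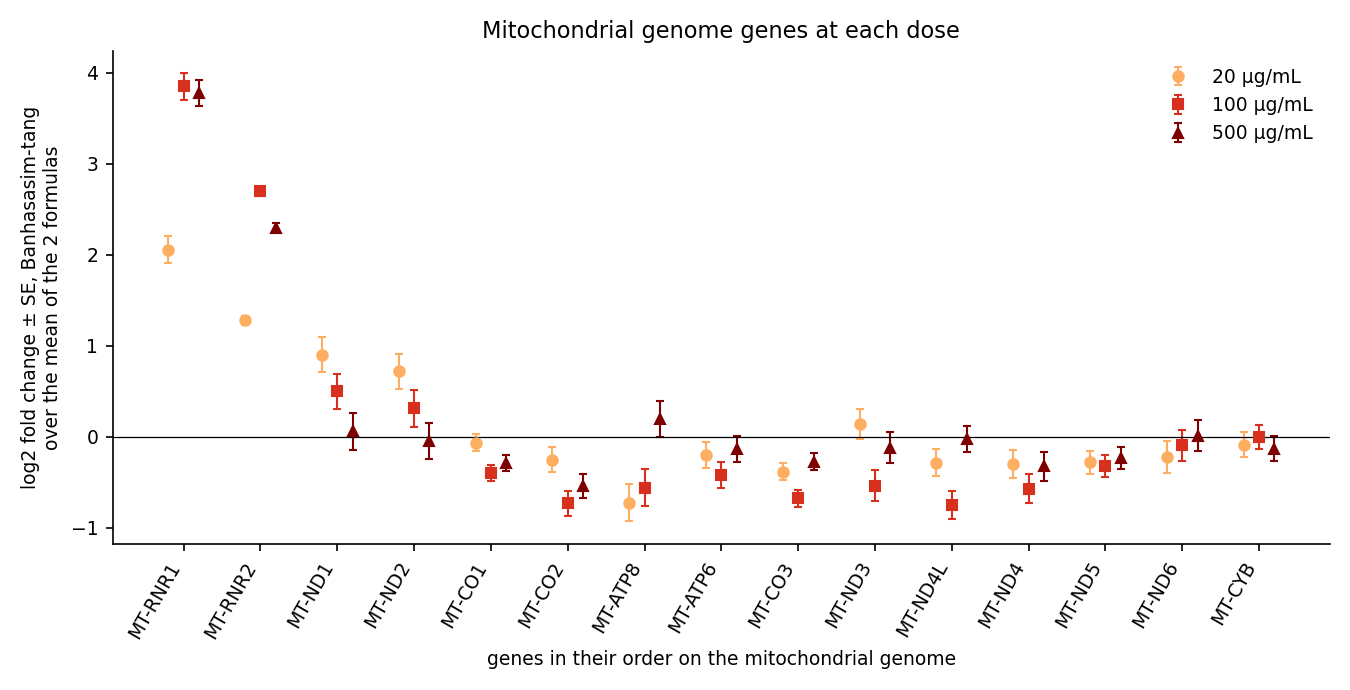
Log2 fold change with its standard error, Banhasasim-tang over the mean of Bojungikgi-tang and Sayeok-tang, for the 15 ribosomal and messenger RNA genes of the mitochondrial genome in their order along it, at 20, 100 and 500 µg/mL. The 2 ribosomal RNA genes stand far above 0 at each dose (2.05, 3.85 and 3.78 for MT-RNR1), while the messenger RNAs lie between -0.75 and 0.90.

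Genes switched on by ATF4 were the largest named group on the higher side. The list of ATF4 targets has 24 tested genes, ATF4 itself among them. Of these, 6 were higher and 0 lower with Banhasasim-tang, beside 0.168% of all tested genes called higher: CHAC1, TRIB3, DDIT3, ASNS, SESN2 and PSAT1. At an unadjusted p under 0.05, 16 were higher and 0 lower, beside 3.59% of all genes. The median log2 fold change of the list was 0.15. The list was drawn up with results of these libraries known, and its direction is not independent evidence.

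CHAC1, an enzyme that breaks down glutathione (ENSG00000128965, chr15:40952962-40956519, plus strand), stood at 9.11 and 9.25 CPM with Banhasasim-tang, against 5.17, 5.68 and 4.52 CPM with Bojungikgi-tang and 5.27, 6.12 and 5.46 CPM with Sayeok-tang. The 2 Banhasasim-tang libraries were close together and above all 6 others, with a log2 fold change of 0.77 (SE 0.09, adjusted p = 1.38e-05). ASNS, which makes asparagine, stood at 62.2 and 61.1 CPM with Banhasasim-tang and between 44.0 and 52.2 CPM in the other 6 (log2 fold change 0.38, adjusted p = 6.88e-04). TRIB3, a pseudokinase that restrains ATF4, stood at 26.7 and 24.5 CPM with Banhasasim-tang and between 17.6 and 20.3 CPM in the other 6 (0.42, adjusted p = 3.85e-04). The transcription factor gene DDIT3, also called CHOP, stood at 31.4 and 33.1 CPM and between 21.7 and 28.1 CPM (0.40, adjusted p = 0.00747). SESN2, which restrains mTORC1 when leucine is low, and PSAT1, of serine synthesis, had log2 fold changes of 0.29 (adjusted p = 0.00213) and 0.27 (adjusted p = 0.00133). SESN2 was named after its values were seen. In all 6 genes the groups did not overlap, as in 39 of the 41 called genes and 9.14% of all tested genes. Without Banhasasim-tang replicate 2 CHAC1 alone of the 6 passed, at a log2 fold change of 0.79, while ASNS had 0.37, TRIB3 0.35, DDIT3 0.44, SESN2 0.27 and PSAT1 0.26. Without replicate 3 only DDIT3 of the 6 did not pass (0.36).

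The 18 members that did not pass are described from examples chosen after their values were seen. ALDH1L2, a mitochondrial folate enzyme, came nearest at 0.37 (adjusted p = 0.0600), with 23.4 and 22.4 CPM against a range of 14.1 to 20.1 CPM. ATF4 itself stood at 141.6 and 140.4 CPM with Banhasasim-tang and between 109.7 and 135.0 CPM in the other 6, without overlap but with an adjusted p of 0.26. None of the 5 amino acid carriers on the list passed. SLC7A5 had 215 and 203 CPM with Banhasasim-tang, against 157 to 181 CPM in 5 of the other libraries and 233 CPM in Sayeok-tang replicate 1 (log2 fold change 0.20, adjusted p = 0.552). SLC7A1 had a log2 fold change of 0.15, SLC7A11 0.08, SLC3A2 0.06 and SLC38A2 -0.01. The only members with a negative value were SLC38A2, CEBPB (-0.08), ATF3 (-0.10) and STC2 (-0.12), none of which passed. ATF3, a partner and target of ATF4, stood at 1.72 and 2.44 CPM with Banhasasim-tang, inside or just under the range of the others, 1.96 to 2.45 CPM.

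Promoter sequences are shown for 3 of the higher genes, since they hold the element through which ATF4 acts with a C/EBP partner. The 8 letters TGATGNAA were searched on both strands in RefSeq windows of GRCh38.p14 that run from 250 bases before to 50 bases after each gene's start. The 3 windows are chr15:40953221-40953520 (plus strand) for CHAC1, chr7:97872359-97872658 (minus strand) for ASNS and chr16:56931892-56932191 (plus strand) for HERPUD1, each written along the gene's strand with the match in capitals.
CHAC1: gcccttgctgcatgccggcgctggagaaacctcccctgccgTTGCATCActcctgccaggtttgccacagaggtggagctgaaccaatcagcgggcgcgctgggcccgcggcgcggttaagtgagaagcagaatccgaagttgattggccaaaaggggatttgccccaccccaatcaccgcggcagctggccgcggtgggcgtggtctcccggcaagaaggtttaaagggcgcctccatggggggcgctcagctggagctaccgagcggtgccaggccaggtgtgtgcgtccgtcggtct
ASNS: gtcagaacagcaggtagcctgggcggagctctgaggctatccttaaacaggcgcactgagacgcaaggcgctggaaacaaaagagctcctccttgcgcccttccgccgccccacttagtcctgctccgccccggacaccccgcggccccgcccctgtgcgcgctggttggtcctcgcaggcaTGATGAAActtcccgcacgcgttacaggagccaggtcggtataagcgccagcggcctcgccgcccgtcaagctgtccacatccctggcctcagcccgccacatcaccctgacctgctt
HERPUD1: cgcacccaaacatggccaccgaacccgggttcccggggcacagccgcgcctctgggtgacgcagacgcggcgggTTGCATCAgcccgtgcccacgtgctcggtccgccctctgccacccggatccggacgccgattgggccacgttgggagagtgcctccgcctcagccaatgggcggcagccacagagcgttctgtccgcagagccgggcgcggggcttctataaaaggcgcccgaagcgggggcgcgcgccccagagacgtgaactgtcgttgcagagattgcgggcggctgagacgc
In CHAC1 and HERPUD1 the match reads on the opposite strand. ASNS has 2 windows, and a window with a match is shown. Of the 33 higher genes, 23 had a window and 5 of these held a match (CHAC1, ASNS, HERPUD1, AARS1 and GARS1). Among the 8 lower genes, 7 had a window and 0 of these held a match. Over all 35116 windows the share was 3.62% and, counted by gene, over tested genes with a window it was 2.90%. The motif was picked after the calls were known, and a match is a description of these letters only.

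**Figure D3:**
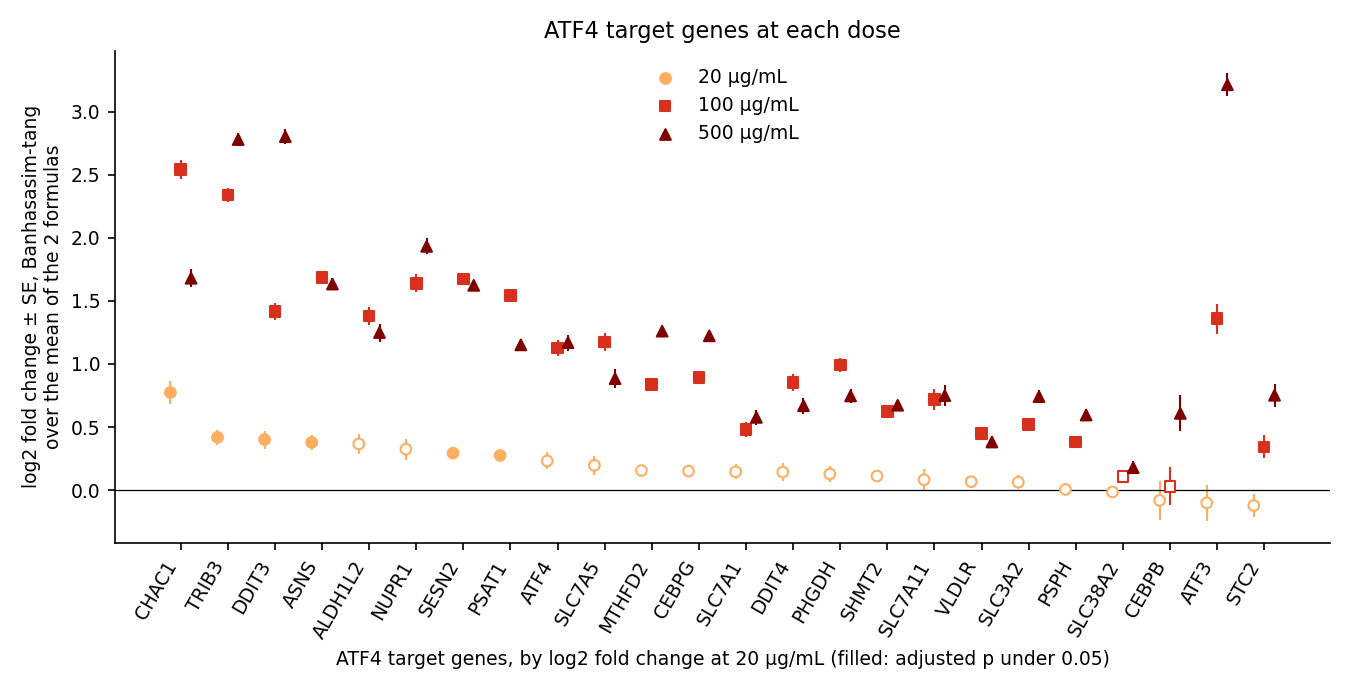
Log2 fold change with its standard error, Banhasasim-tang over the mean of Bojungikgi-tang and Sayeok-tang, at 20, 100 and 500 µg/mL. The genes are the 24 tested members of the ATF4 target list, ATF4 itself among them, ordered by the value at 20 µg/mL. Filled symbols have an adjusted p under 0.05: 6 genes at 20 µg/mL, 22 at 100 µg/mL and 24 at 500 µg/mL.

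ADM2 and GDF15, which encode secreted proteins, were higher with Banhasasim-tang. ADM2, a peptide of the adrenomedullin family (ENSG00000128165, chr22:50481556-50486440, plus strand), stood at 3.70 and 4.33 CPM with Banhasasim-tang, against 2.10, 2.34 and 2.39 CPM with Bojungikgi-tang and 1.91, 2.19 and 2.28 CPM with Sayeok-tang. Its log2 fold change was 0.86 (SE 0.12, adjusted p = 3.46e-04), and without Banhasasim-tang replicate 3 it was 0.75 with an adjusted p of 0.0512. GDF15, a circulating stress cytokine, stood at 6.80 and 6.79 CPM with Banhasasim-tang, against 4.28, 4.58 and 4.03 CPM with Bojungikgi-tang and 5.49, 5.26 and 5.71 CPM with Sayeok-tang (0.49, SE 0.08, adjusted p = 0.00231). The Sayeok-tang libraries lay between the other formulas, and the call was lost whichever Banhasasim-tang library was left out (0.49 each time, adjusted p = 0.172 without replicate 2 and 0.0765 without replicate 3).

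Single genes of neighbouring stress pathways rose slightly. HERPUD1, which helps clear misfolded proteins from the endoplasmic reticulum, stood at 88.8 and 86.2 CPM with Banhasasim-tang and between 64.5 and 76.4 CPM in the other 6 (log2 fold change 0.34, adjusted p = 6.88e-04). It was the only one of 18 endoplasmic reticulum chaperone genes to pass, where 0.168% of all tested genes were called higher. At an unadjusted p under 0.05, 6 of the 18 were higher and 0 lower, beside 3.59 and 3.33% of all genes, among them SEL1L (0.16), HYOU1 (0.12) and DNAJB9 (0.16). HMOX1, which breaks down heme, stood at 76.6 and 71.8 CPM with Banhasasim-tang and between 52.8 and 64.4 CPM in the other 6 (0.32, adjusted p = 0.00213). It was the only one of 25 NRF2 targets to pass, and at an unadjusted p under 0.05 the list had 3 higher and 3 lower, beside the same 3.59 and 3.33%, with AKR1C2 (-0.27) and AKR1C1 (-0.23) among the lower. CBS, which channels homocysteine towards cysteine, had 8.81 and 9.90 CPM with Banhasasim-tang and 6.80 to 7.39 CPM in the other 6 (0.39, adjusted p = 0.00448). Without Banhasasim-tang replicate 2 HERPUD1 (0.32, adjusted p = 0.139) and HMOX1 (0.27, adjusted p = 0.337) did not pass. Without replicate 3 CBS did not (0.31, adjusted p = 0.527).

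**Figure D4:**
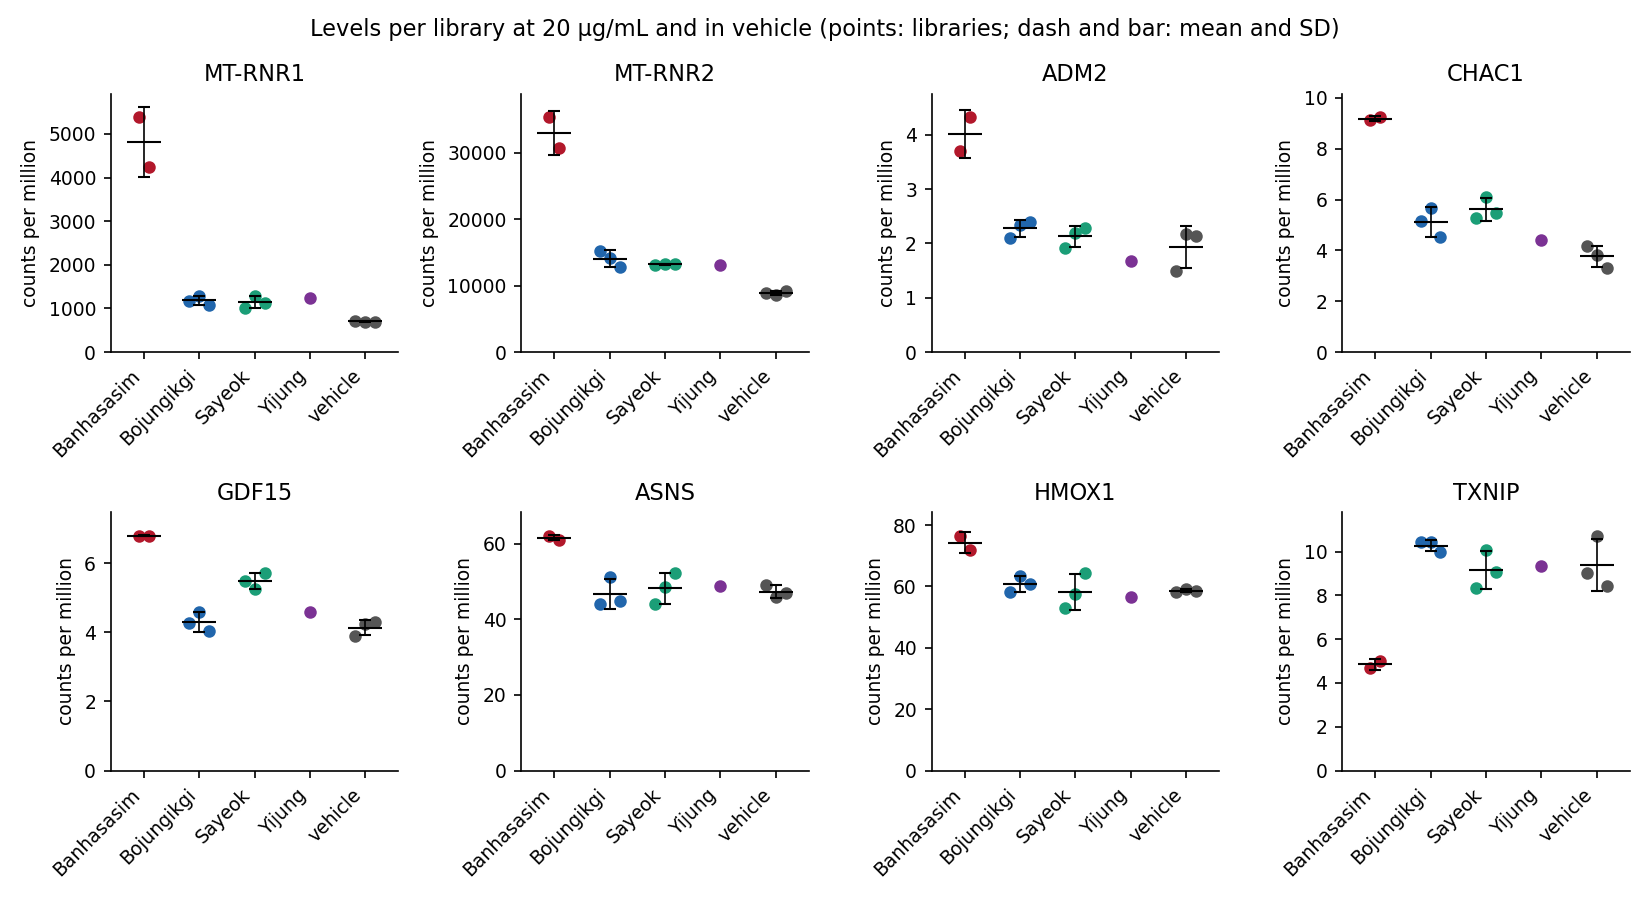
Levels in CPM per library (points) with group means and SD for 8 genes at 20 µg/mL, in the order Banhasasim-tang (2 libraries), Bojungikgi-tang (3), Sayeok-tang (3), Yijung-tang (1) and vehicle (3). Banhasasim-tang libraries lie above all others for MT-RNR1, MT-RNR2, ADM2, CHAC1, GDF15, ASNS and HMOX1, and below all others for TXNIP.

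The remaining higher genes by the naming rule belong to no list used here. STK32A, a protein kinase, had 2.14 and 1.93 CPM with Banhasasim-tang and 1.09 to 1.47 CPM in the other 6 (log2 fold change 0.65, adjusted p = 0.0208). KCNG1, a modulatory potassium channel subunit, had 15.5 and 13.7 CPM and 10.3 to 11.5 CPM (0.42, adjusted p = 0.00213). PODXL, a cell surface sialomucin, had 79.6 and 77.7 CPM and 51.8 to 67.2 CPM (0.37, adjusted p = 3.46e-04). SH2D5, an adaptor protein gene, and UAP1L1 had log2 fold changes of 0.44 and 0.36. This naming keeps only called genes in which both Banhasasim-tang libraries lie beyond the other 6, as 9.14% of all tested genes do. In each of these 5 genes the groups did not overlap, and none passed without Banhasasim-tang replicate 2, where their log2 fold changes ran between 0.33 for KCNG1 and 0.57 for STK32A. Without replicate 3 STK32A (0.72) and SH2D5 (0.41) did not pass either.

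Further higher genes fall outside the naming rule and, apart from AXL, were chosen after their values were seen. AARS1 and GARS1, which charge alanine and glycine tRNAs, had log2 fold changes of 0.18 each, and XPOT, which exports tRNAs from the nucleus, had 0.17. AARS1 stood at 218 and 212 CPM with Banhasasim-tang and between 187 and 197 CPM in the other 6. MKNK2, a kinase of the initiation factor eIF4E, stood at 63.8 CPM in each Banhasasim-tang library and between 50.5 and 54.7 CPM in the other 6 (0.27, adjusted p = 3.46e-04). DYSF, of plasma membrane repair, had 0.29, PITPNM3 0.33, FRMD5 0.28, EML2 0.21, PLEKHM2 0.17 and TBC1D2 0.17. AXL, a receptor tyrosine kinase, was the only one of 13 YAP targets to pass (0.17, adjusted p = 0.0276), where 0.168% of all tested genes were called higher. MALAT1, an abundant nuclear RNA, had 1304 and 1308 CPM with Banhasasim-tang, while Bojungikgi-tang replicate 2 reached 1328 CPM and the Yijung-tang library 1261 CPM. RNVU1-7, a variant of a spliceosomal RNA, had the largest log2 fold change of all called genes (3.06), but this rests on Banhasasim-tang replicate 2 at 0.513 CPM, since replicate 3 had 0.0460 CPM and the other 6 reached 0.0501 CPM. Of the genes in this paragraph only MKNK2 passed both without Banhasasim-tang replicate 2 and without replicate 3 (0.27 each time). Without Sayeok-tang replicate 1 GARS1 (0.17), XPOT (0.16), FRMD5 (0.26), PLEKHM2 (0.17), TBC1D2 (0.16), MALAT1 (0.32) and RNVU1-7 (2.92) did not pass.

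TXNIP had the largest difference among the 8 lower genes. It encodes a thioredoxin-interacting protein that limits glucose uptake and is switched on by glucose through the MondoA and ChREBP factors (ENSG00000265972, chr1:145992435-145996600, minus strand). It stood at 4.67 and 5.02 CPM with Banhasasim-tang, against 10.4, 10.4 and 9.97 CPM with Bojungikgi-tang and 8.35, 10.1 and 9.09 CPM with Sayeok-tang. The fold was 0.498, the log2 fold change -1.01 (SE 0.10, adjusted p = 1.56e-06). The groups were far apart, and the Yijung-tang library at 9.32 CPM and the 3 vehicle libraries at 8.44 to 10.7 CPM lay with the other formulas. It was the only lower gene that passed in all 19 other settings, with log2 fold changes of -1.06 to -0.95. TXNIP was also the only one of 17 tested genes of the FOXO and PI3K feedback list to pass, where 0.0407% of all tested genes were called lower. A promoter window is shown because it holds the glucose-responsive element, 2 CACGNG boxes with 5 letters between them (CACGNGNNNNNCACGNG, both strands, in capitals). This was found in 0.057% of the 35116 windows and, counted by gene, in 0.126% of tested genes with a window. TXNIP has 2 windows, and the window shown is chr1:145996530-145996829, minus strand.
TXNIP: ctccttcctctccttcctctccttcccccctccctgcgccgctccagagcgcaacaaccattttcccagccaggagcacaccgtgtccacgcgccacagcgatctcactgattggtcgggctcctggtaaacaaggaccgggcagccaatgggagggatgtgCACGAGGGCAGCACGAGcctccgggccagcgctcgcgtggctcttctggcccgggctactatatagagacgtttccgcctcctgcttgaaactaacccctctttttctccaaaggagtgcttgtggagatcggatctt
The match is a run of letters in the reference genome, and no binding was measured.

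The other 7 lower genes differed little, with folds of 0.797 to 0.865. COLEC12, a scavenger receptor, had 18.3 and 17.4 CPM with Banhasasim-tang and 20.8 to 25.7 CPM in the other 6 (log2 fold change -0.33, adjusted p = 0.00899). VAV3 had 17.6 and 17.3 CPM and 20.3 to 23.3 CPM (-0.31, adjusted p = 0.0173). Complement component C3 had 52.3 and 49.7 CPM and 54.5 to 69.4 CPM (-0.27, adjusted p = 0.0329). CDKN2C, an inhibitor of cell cycle kinases, had 104 and 102 CPM and 114 to 132 CPM (-0.24, adjusted p = 0.0276). SFRP2, a secreted modulator of Wnt signals, had -0.25, and FAM111A and LYPD1 had -0.21 each. None of the 7 passed without Banhasasim-tang replicate 2, nor without replicate 3, and without Sayeok-tang replicate 1 C3 (-0.23), SFRP2 (-0.21), LYPD1 (-0.19) and FAM111A (-0.21) did not. In C3, SFRP2, CDKN2C and LYPD1 the Banhasasim-tang libraries overlapped the vehicle libraries, and all 6 libraries of the other formulas were above them. For CDKN2C, vehicle ranged from 95.7 to 106 CPM. Among the 33 higher genes both Banhasasim-tang libraries were above all 3 vehicle libraries in all but FRMD5. How often this held over all tested genes was not counted, so the comparisons with vehicle have no share beside them. The vehicle library names begin with E1, and their depth was lower, at 28008057 to 37406875 counts.

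Most gene lists showed no call. Of 37 lists, 32 had 0 members past the threshold, with medians of -0.37 to 0.10. Proliferation genes leaned low without passing: 9 of 25 G2/M genes and 9 of 26 DNA replication genes were lower and 0 higher at an unadjusted p under 0.05, beside 3.33% of all genes called lower. CDK1, the mitotic kinase, had a log2 fold change of -0.17 (67.7 and 67.5 CPM against 71.6 to 85.9 CPM), and TYMS, which makes thymidylate, had -0.21 (83.0 and 84.8 CPM against 91.6 to 103 CPM). Heat shock genes had 6 of 15 lower at an unadjusted p under 0.05, BAG3 at -0.19 and HSPA1A at -0.17 nearest the threshold (adjusted p = 0.0760 and 0.0672). HSPA1A shares reads with a near-identical copy. Of 10 aryl hydrocarbon receptor targets 4 were lower and 1 higher at an unadjusted p under 0.05. CYP1B1, which oxidises estrogens and aromatic compounds, had 122.1 and 118.6 CPM against 133 to 243 CPM (-0.42, adjusted p = 0.457). Of 19 inflammatory genes 4 were lower, PTGS2 at -0.31 (adjusted p = 0.128) and CCL2 at -0.31 (adjusted p = 0.479) among them. Against Sayeok-tang and Bojungikgi-tang alone, in that order, CYP1B1 had -0.52 and -0.32, CCL2 -0.44 and -0.18, and PTGS2 -0.37 and -0.24. Summed neuron markers were 169.4 to 177.5 CPM with Banhasasim-tang and 174.4 to 196.3 CPM in the other 6, which overlap. Of these 13 markers 7 were below 1 CPM, and TUBB3, a tubulin that is not limited to neurons, averaged 96.5 CPM with Banhasasim-tang and 101.9 CPM in the other 6. Summed oligodendrocyte markers were 367 to 371 CPM with Banhasasim-tang and 338 to 363 CPM in the other 6, without overlap. The vehicle libraries were above both, at 374.6 to 384.1 CPM. CSPG4 supplied most of the gap, averaging 196.8 CPM with Banhasasim-tang and 173.8 CPM in the other 6. MBP was slightly higher too, whereas CNP (142.2 against 146.7 CPM) and PDGFRA were lower with Banhasasim-tang. Among the 11 oligodendrocyte markers, 7 were below 1 CPM, with MOG and SOX10 at 0 in all 8 libraries. Summed microglia, epithelial and endothelial markers overlapped between the groups. In bulk RNA, fewer cells of a kind and less RNA per cell cannot be told apart.

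Most of the 41 genes had the same direction at the higher doses, where none of the libraries are shared with the low-dose comparison. The first number of the library names splits the formulas in the same way at each dose. Formula and set of libraries therefore cannot be told apart at the higher doses either. All doses also share 1 estimate of the spread over the 30 libraries. At 100 µg/mL 40 of the 41 did and 39 passed, where 20.3% of all tested genes passed in either direction. At 500 µg/mL 39 had the same direction, 37 passed in it and SFRP2 passed in the other, where 47.7% of all tested genes passed. By the test of the difference itself, 32 genes differed more at 100 than at 20 µg/mL, where 3.99% of all tested genes changed with dose, and 33 differed more at 500 µg/mL, where 31.8% did. By the same test 1 gene differed less at 100 µg/mL than at 20 µg/mL, and 3 differed less at 500 µg/mL. The list of ATF4 targets, with ATF4 itself, had 22 higher and 0 lower of 24 at 100 µg/mL. At 500 µg/mL it had 24 and 0. The medians were 0.94 and 1.02 at these doses, where 11.1 and 25% of all tested genes were called higher.

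The genes differed in how their difference moved with dose. For MT-RNR1 the log2 fold changes were 2.05, 3.85 and 3.78 at 20, 100 and 500 µg/mL, with 16310 and 17430 CPM with Banhasasim-tang at 100 µg/mL. CHAC1 had 0.77, 2.54 and 1.68, while GDF15 had 0.49 at 20 µg/mL and 3.69 at 500 µg/mL. For HMOX1 the values were 0.32, 0.37 and 0.16, and the tests of the difference gave adjusted p = 0.867 for 100 µg/mL and 0.109 for 500 µg/mL. At 500 µg/mL HMOX1 stood at 322 and 352 CPM with Banhasasim-tang, against means of 227 CPM with Bojungikgi-tang and 398 CPM with Sayeok-tang. TXNIP had -1.01, -2.25 and -0.22. At 500 µg/mL it did not pass (adjusted p = 0.0920), with 5.86 and 5.00 CPM for Banhasasim-tang, a mean of 9.09 CPM for Bojungikgi-tang and 4.30 CPM for Sayeok-tang.

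**Figure D5:**
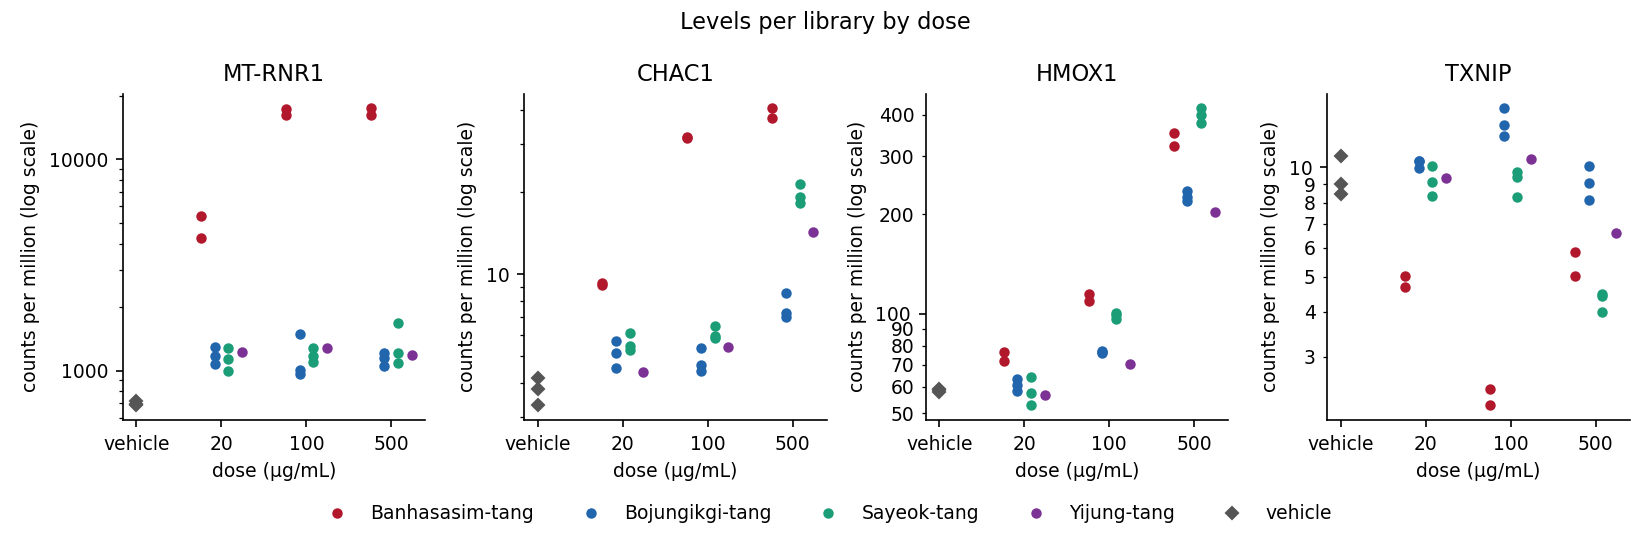
Levels in CPM per library on a log scale for MT-RNR1, CHAC1, HMOX1 and TXNIP in vehicle and at 20, 100 and 500 µg/mL, each formula in its own colour. Banhasasim-tang lies apart from the others for MT-RNR1 and CHAC1 at each dose, whereas HMOX1 is at or above 203 CPM in every library at 500 µg/mL and TXNIP is lowest with Sayeok-tang at that dose.

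Yijung-tang, whose library names begin with the same number as those of Banhasasim-tang, is described by its levels only. Its 20 µg/mL library was within the range of the 6 Bojungikgi-tang and Sayeok-tang libraries for 28 of the 41 genes, beyond it on the Banhasasim-tang side for 7 and on the opposite side for 6. It reached the level of a Banhasasim-tang library in RNVU1-7 alone. For CHAC1 it had 4.40 CPM and for ADM2 1.67 CPM, below all 6. It is a single library, so no test was made. How often it lay within that range over all tested genes was not counted, so the 28, 7 and 6 have no share beside them.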

How the data were processed

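RNA from SW1783 cells was sequenced as 100 bp paired-end reads from strand-marked mRNA libraries, per the labels' protocols. The authors deposited RSEM expected counts per gene for 30 libraries (60675 Ensembl genes), and the submitters' processing notes name hg38 (GRCh38) and the tools RSEM 1.3.3, STAR 2.7.3a, Trim Galore 0.6.5 and FastQC 0.11.9. Which annotation release was counted is not given in those notes. Between 9.36 and 11.1% of a library's values were not whole, and all were rounded. Because RSEM shares ambiguous reads out by likelihood, HSPA1A, small RNAs and nuclear copies of mitochondrial genes are uncertain.

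Genes were filtered with filterByExpr (19632 kept), scaled by TMM and fitted as 13 group means over all 30 libraries (edgeR 4.0.16, glmQLFit and robust glmQLFTest, R 4.3.3). The contrast was the Banhasasim-tang mean minus the average of the Bojungikgi-tang and Sayeok-tang means, with Benjamini-Hochberg adjustment over all tested genes at 0.05. CPM are scaled by TMM, and the SE is the log2 fold change divided by the square root of its F statistic. Alternatives were DESeq2 1.42.0 and the settings named in the closing section. Coordinates came from GENCODE v29, promoter windows from RefSeq (GRCh38.p14). Data with the low-dose design (19437 genes) were simulated from the fitted means and spread. At each fold 50 genes of at least 1 CPM were changed. The test recovered 58% of changes by 1.2-fold, 60% by 1.25-fold, 92% by 1.5-fold and 96% by 2-fold. Of its 162 calls 5.56% were false. The real comparison gave 41 calls, so these shares need not hold for it or for genes of lower counts. Replicate libraries differed by more than counting noise, which speaks only to files deposited more than once, and each was counted once.

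The comparison, genes and lists were chosen with earlier results of these data known. Named genes were the called ones with a symbol, at least 1 CPM and both Banhasasim-tang libraries beyond the other 6, up to 15 each way by log2 fold change, plus up to 4 members of each list with the smallest adjusted p. The design text gives 2% DMSO for vehicle, where the sample labels give 0.1%.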

Additional observations from a re-analysis of the deposited data

Results flagged for a closer look

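In the 6 Bojungikgi-tang and Sayeok-tang libraries at 20 µg/mL, 72 genes were examined for a library far from the other 5 (Dixon's criterion), and 6 genes had one, where chance gives about 1 in 20. Sayeok-tang replicate 1 was that library in 4 genes, on the high side each time: COLEC12 at 25.7 CPM, SFRP2 at 50.3 CPM, SLC7A5 at 233 CPM and STC2 at 769 CPM. COLEC12 and SFRP2 are called lower with Banhasasim-tang, and without this library SFRP2 did not pass (log2 fold change -0.21, edgeR adjusted p = 0.0789). PITPNM3, called higher with Banhasasim-tang, was low in Bojungikgi-tang replicate 2, at 41.8 CPM. MT-ND2 was high in Bojungikgi-tang replicate 1, at 5800 CPM.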

How the results depend on the processing

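No log2 fold change of the 41 called genes changed sign in any of the 19 other settings, and TXNIP, MT-RNR1 and MT-RNR2 passed in every setting that gave them a value. Counts of calls moved more. The low-dose comparison gave 79 calls (57 higher, 22 lower) with DESeq2, 31 lower with library size scaling, 226 (103 and 123) with no filter on low counts, 5 (4 and 1) with the 8 low-dose libraries alone in 3 groups, 5 (4 and 1) with these as 2 groups, and 5 (4 and 1) when a fold of at least 1.2 was tested. Fitting fewer libraries leaves fewer degrees of freedom for the spread; the other causes were not tested. Leaving out 1 library at a time gave 8 to 54 calls, 7 to 47 higher and 1 to 13 lower; where a Banhasasim-tang library is left out, the remaining one is assumed to vary like the other groups. Against Bojungikgi-tang the calls were 61 with DESeq2, 4 with the 8 libraries alone and 8 to 31 with 1 library left out; against Sayeok-tang 54, 3 and 5 to 36. At 100 µg/mL library size scaling gave 6916 calls and leaving out 1 library 2161 to 4149, and for the difference between 20 and 100 µg/mL 1663 and 428 to 1112. With the replicate number as a block, 39 of the 41 calls held over all 30 libraries, and the low-dose libraries of replicates 2 and 3 alone gave 3 calls (2 higher, 1 lower). The labels do not say what a replicate number marks, and same-numbered libraries correlated at -0.27 to 0.26 over 7 pairs, so the numbers were not taken as pairs. With the 18S level as a covariate 33 of the 41 held, and with the genes of the mitochondrial genome left out, a setting chosen after seeing the data, 37 of 39. In the simulation, whose setting is given with the methods, 58% of 1.2-fold changes were recovered, so differences of that size can go undetected.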

Other observations

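No target of SRF, a transcription factor of actin genes, passed at 20 µg/mL. At an unadjusted p under 0.05, 3 of the 15 were higher and 0 lower, beside 3.59 and 3.33% of all tested genes. ACTG1, a cytoplasmic actin, stood at 4053 and 4037 CPM with Banhasasim-tang, against 3459 to 3743 CPM in the 6 Bojungikgi-tang and Sayeok-tang libraries (log2 fold change 0.16, edgeR adjusted p = 0.0760). ACTA2, smooth muscle actin, stood at 107.8 and 108.1 CPM with Banhasasim-tang, against 87.1 to 100.4 CPM (0.17, adjusted p = 0.243). Both were chosen after their values were seen. Of 23 interferon response genes 0 were higher and 0 lower at that unadjusted threshold. The 26 nuclear genes of oxidative phosphorylation had a median log2 fold change of -0.06, beside 1e-04 over all genes, and 0 were past the unadjusted threshold.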
